A study of Homo sapiens with 6 samples.

Results

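The genes of cholesterol and fatty acid synthesis were compared between MDA-MB-453 cells transfected with *DUSP6* siRNA and with scrambled siRNA. The set held 30 genes of the 22807 in the table, each found by an exact match of its symbol. These were 18 enzymes of sterol synthesis, 7 enzymes of fatty acid synthesis, 4 SREBP regulators and 1 sterol transport gene. The regulators were *SREBF1* and *SREBF2*, which encode the SREBP transcription factors, and *SCAP* and *INSIG1*, whose proteins act on them. MDA-MB-453 is an established HER2+ breast cancer cell line, and *DUSP6* encodes a phosphatase that inactivates the kinase ERK. RNA was sequenced from 6 libraries, 3 labelled scrambled (genotype WT) and 3 labelled *DUSP6* knockdown (genotype DUSP6 KD). Different siRNAs were used within each group, and their assignment to the libraries is not given in the sources used here. Nothing in the labels says that the libraries came from separate cultures, so the p-values measure the spread between these libraries. That spread may hold differences between siRNAs as well as technical differences, and these cannot be told apart here. Effects of the *DUSP6* siRNAs other than the loss of *DUSP6* cannot be told apart from that loss, since no library holds one without the other.

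Cells make cholesterol from acetyl-CoA by way of mevalonate, farnesyl diphosphate, squalene and lanosterol, and they make fatty acids from the same acetyl-CoA by way of malonyl-CoA and palmitate. Transcription of both branches is driven by SREBP1 and SREBP2, membrane proteins of the endoplasmic reticulum that are encoded by *SREBF1* and *SREBF2*. When sterols are scarce, SCAP escorts the SREBPs to the Golgi, where proteases release the part that enters the nucleus, whereas INSIG proteins hold SCAP back when sterols are plentiful. SREBP1 is known mainly for the fatty acid genes and SREBP2 mainly for the sterol genes, and fatty acid synthesis is known to be high in many HER2+ breast cancer cells.

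Each value is a gene's reads relative to the scaled size of its library, on a linear scale. The libraries held 45546981 to 85729785 reads, and no member had fewer than 351 reads in any library. *DUSP6* itself was 209, 110 and 114 with scrambled siRNA (replicates 1, 2 and 3, the order kept for all values) and 39.4, 24.5 and 35.2 with *DUSP6* siRNA, at a log2 fold change of -2.05 (SE 0.25, limma adjusted p = 3.09e-04). The 5 markers of a luminal HER2+ line used here, *EPCAM*, *KRT8*, *KRT18*, *ERBB2* and *FOXA1*, had mean values of at least 268 with scrambled siRNA. Of these 5, 4 were lower with *DUSP6* siRNA, against 24.7% of all genes tested, *ERBB2* at 495 against 984, and *EPCAM* was not called. Under quantile normalization and under total-count scaling 3 were lower, *KRT8* losing its call, and 1, *EPCAM*, was higher. The number lower was also 3 without any one library other than scrambled siRNA replicate 3. *PTPRC*, *PECAM1*, *CDH5* and *COL3A1*, markers of leukocytes, endothelium and fibroblasts, had means of at most 0.224 in either group, and the macrophage marker *CD68* was at 5.00 with scrambled and 4.53 with *DUSP6* siRNA. The collagen gene *COL1A1* was an exception, at 92.2 with scrambled and 173 with *DUSP6* siRNA. What part these shifts have in the results for the members was not tested. In these bulk libraries, fewer cells of a kind and less RNA per cell cannot be told apart.

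With *DUSP6* siRNA the members moved unequally. Of the 30 members, 17 were lower and 1 was higher at a limma adjusted p under 0.05 (Benjamini-Hochberg, over the 12862 genes whose mean value reached 1), and 12 were not called. Among all genes tested, 24.7% were lower and 19.7% higher by the same rule. The median log2 fold change was -0.34 over the members and -0.01 over all genes tested. All 3 *DUSP6* siRNA libraries lay below all 3 scrambled siRNA libraries for 18 members, against 31.1% of all genes tested, and above them for 1 member, against 26.7% of all genes tested. For a single gene the exact permutation test over 3 libraries against 3 cannot give a p below 0.1.

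The fatty acid enzymes had the lowest median, at -0.85, with 5 of 7 lower and 0 higher. No further enzyme of this branch was higher at an unadjusted p under 0.05, and edgeR, run with its quasi-likelihood test on the reads behind the values, also gave 5 lower and 0 higher. Of the 4 regulators, 3 were lower and 0 higher (again 0 higher at an unadjusted p under 0.05 and 0 with edgeR), with a median of -0.59. The 18 sterol enzymes had a median of -0.20 as deposited, which became 0.03 under both quantile normalization and total-count scaling, and 9 were lower, 1 higher and 8 not called. The branches shared the same 6 libraries and their genes were chosen with results known, so no p is given for a difference between them.

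**Figure D1:**
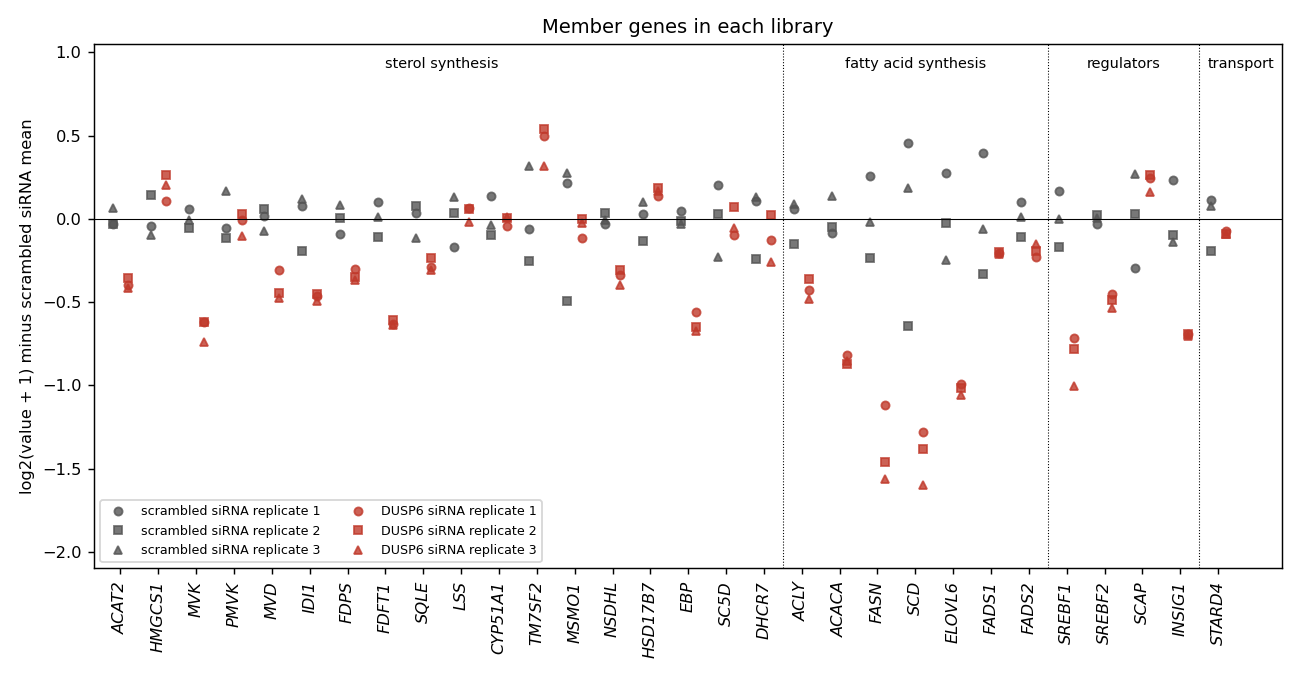
Each point is the log2(value + 1) of a member gene in 1 library less the mean of the 3 scrambled siRNA libraries, on the vertical axis, with the genes along the horizontal axis in pathway order. Grey points are scrambled siRNA and red points *DUSP6* siRNA libraries. For *FASN*, *SCD* and *ELOVL6* the red points lie farthest below 0, and for *HMGCS1*, *LSS* and *CYP51A1* they mix with the grey ones.

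The regulators come first, since 2 of the 4, *SREBF1* and *SREBF2*, encode the SREBPs that drive the enzyme genes. *SREBF2* varied least of the 4 among the scrambled siRNA libraries. Its value was 518, 538 and 531 in the scrambled siRNA libraries and 386, 377 and 365 in the *DUSP6* siRNA libraries, so that the groups lay well apart. Means were 529 ± 9.97 (SD, n = 3) and 376 ± 10.7 (SD, n = 3), and the log2 fold change was -0.49 (SE 0.08, limma adjusted p = 0.00155). *SREBF1* was 278, 220 and 248 with scrambled siRNA and 151, 144 and 123 with *DUSP6* siRNA. It fell by 44.1% in the mean, a log2 fold change of -0.83 (SE 0.12, limma adjusted p = 5.92e-04). Exons of *RAI1* cover 6.75% of those of *SREBF1*, so a small part of its value is uncertain.

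*INSIG1*, whose protein retains SCAP in the endoplasmic reticulum and whose gene is itself a known SREBP target, was 117, 93.1 and 90.3 with scrambled siRNA. In the *DUSP6* siRNA libraries it was 61.1, 61.3 and 60.8, which was nearly the same value in each and below every scrambled siRNA library. The log2 fold change was -0.69 (SE 0.11, limma adjusted p = 0.00120). *SCAP*, the escort protein of the SREBPs, did not follow the other 3 regulators. It was 71.6, 89.6 and 106 with scrambled siRNA and 104, 106 and 98.4 with *DUSP6* siRNA, and the groups overlapped because scrambled siRNA replicate 3 was as high as the *DUSP6* siRNA libraries. Its log2 fold change was 0.22 (95% confidence interval -0.08 to 0.53, limma adjusted p = 0.206), and without scrambled siRNA replicate 3 it was called higher at 0.36 (limma adjusted p = 0.0238). Under total-count scaling *SCAP* was also called higher (0.45, limma adjusted p = 0.0392).

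The promoters of 4 members are shown because they represent a regulator that fell, a sterol enzyme that fell, a sterol enzyme that was not called and the fatty acid enzyme that fell most. Each runs from 250 bases before to 50 bases after the gene's start in RefSeq on GRCh38.p14, on the gene's own strand, and capitals mark CCAAT or its reverse complement ATTGG, the letters bound by NF-Y, and in *SREBF2* also TCACNCCAC, the letters of a sterol regulatory element. *SREBF2* lies at chr22:41832855-41833154 on the plus strand, *MVK* at chr12:109573544-109573843 on the plus strand, *HMGCS1* at chr5:43313363-43313662 on the minus strand and *SCD* at chr10:100346983-100347282 on the plus strand.
SREBF2: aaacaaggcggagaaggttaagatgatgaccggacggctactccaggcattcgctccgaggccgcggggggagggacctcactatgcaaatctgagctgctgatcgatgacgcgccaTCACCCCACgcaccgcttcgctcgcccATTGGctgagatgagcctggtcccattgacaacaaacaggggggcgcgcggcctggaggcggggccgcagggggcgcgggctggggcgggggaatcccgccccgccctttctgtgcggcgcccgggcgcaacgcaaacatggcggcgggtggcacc
MVK: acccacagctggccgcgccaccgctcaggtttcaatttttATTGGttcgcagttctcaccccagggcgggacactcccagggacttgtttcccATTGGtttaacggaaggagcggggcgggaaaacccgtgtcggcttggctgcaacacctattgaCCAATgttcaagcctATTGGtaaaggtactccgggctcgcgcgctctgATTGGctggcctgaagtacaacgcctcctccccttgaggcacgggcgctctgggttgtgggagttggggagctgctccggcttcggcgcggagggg
HMGCS1: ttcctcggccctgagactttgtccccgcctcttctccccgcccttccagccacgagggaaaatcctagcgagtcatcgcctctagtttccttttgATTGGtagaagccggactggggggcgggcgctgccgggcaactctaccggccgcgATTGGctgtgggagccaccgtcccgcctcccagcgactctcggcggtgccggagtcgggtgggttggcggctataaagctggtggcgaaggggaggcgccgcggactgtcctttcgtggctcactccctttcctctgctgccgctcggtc
SCD: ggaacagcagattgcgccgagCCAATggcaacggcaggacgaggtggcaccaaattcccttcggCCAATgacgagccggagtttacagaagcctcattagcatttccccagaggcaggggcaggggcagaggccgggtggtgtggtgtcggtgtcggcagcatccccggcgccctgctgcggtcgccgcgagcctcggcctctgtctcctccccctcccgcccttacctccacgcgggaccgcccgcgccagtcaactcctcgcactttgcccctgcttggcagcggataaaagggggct

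SREBPs are known to bind weakly alone and to work beside NF-Y and Sp1, so letters of all 3 factors, none contained in another, were searched on both strands in the 26 of 30 members whose promoters were in the RefSeq table. CCAAT was present in 17 of 26 members, against 35.7% of all 27305 promoters and 37.3% of the 10127 promoters of genes tested. It was found in 12 of 15 sterol enzymes, 2 of 6 fatty acid enzymes and 2 of 4 regulators. GGGCGG, the letters of Sp1, was present in 24 of 26 members, against 44.6% of all promoters and 69.9% of those of genes tested. TCACNCCAC was present in *SREBF2* alone among the members, and in 1.15% of all promoters. Of the members that were lower, 9 of 13 held CCAAT and 12 of 13 GGGCGG, and of those not called, 7 of 12 and 11 of 12. The members without a promoter in the RefSeq table, *ACAT2*, *FDFT1*, *SQLE* and *FASN*, were all lower, so this comparison leaves out lower members only. *MVK*, which fell, holds 5 copies of CCAAT in the printed sequence, and *HMGCS1*, which was not called, holds 2. A match is a description of the letters and not of binding.

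Of the 7 fatty acid enzymes, the 5 that were lower act on the path from citrate to stearoyl-CoA and oleoyl-CoA. *FASN*, the fatty acid synthase that builds palmitate, was 1558, 1111 and 1286 in the scrambled siRNA libraries and 601, 473 and 441 in the *DUSP6* siRNA libraries. The highest *DUSP6* siRNA library thus lay far below the lowest scrambled one. From means of 1318 ± 225 (SD, n = 3) and 505 ± 84.8 (SD, n = 3), the log2 fold change was -1.38 (SE 0.16, limma adjusted p = 1.95e-04). *SCD*, the desaturase that turns stearoyl-CoA into oleoyl-CoA, varied most among the scrambled siRNA libraries, at 1468, 686 and 1218. With *DUSP6* siRNA it was 441, 411 and 353, still below the low second scrambled siRNA library. Its log2 fold change was -1.42 (SE 0.24, limma adjusted p = 0.00177), with a range from -1.74 to -1.19 when each library was left out in turn. *SCD* has a pseudogene that could share reads.

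*ELOVL6*, which lengthens palmitate to stearate, was 119, 96.2 and 82.1 with scrambled siRNA and 48.7, 47.8 and 46.6 with *DUSP6* siRNA. It fell by 51.8% in the mean (log2 fold change -1.02, SE 0.13, limma adjusted p = 3.61e-04), and the groups lay apart. *ACACA*, the acetyl-CoA carboxylase that makes malonyl-CoA and so commits carbon to fatty acids, was 162, 166 and 190 with scrambled siRNA. In the *DUSP6* siRNA libraries it was 97.2, 93.7 and 94.7, a log2 fold change of -0.85 (SE 0.09, limma adjusted p = 1.51e-04). *ACLY*, the ATP citrate lyase that supplies cytosolic acetyl-CoA to both branches, changed less, from 307, 265 and 313 to 219, 229 and 211. Its log2 fold change was -0.42 (SE 0.10, limma adjusted p = 0.00674), and the call was lost under quantile normalization (-0.21, limma adjusted p = 0.0630) and total-count scaling (-0.19, limma adjusted p = 0.137).

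The desaturases of polyunsaturated fatty acids, which act on dietary precursors, were not called. *FADS1* was 42.6, 25.4 and 30.8 with scrambled siRNA and 27.9, 28.0 and 27.6 with *DUSP6* siRNA, so that the *DUSP6* siRNA libraries lay within the scrambled range. Its log2 fold change was -0.20 (95% confidence interval -0.58 to 0.17, limma adjusted p = 0.337). *FADS2* was 26.5, 22.8 and 24.9 with scrambled siRNA and 20.9, 21.4 and 22.0 with *DUSP6* siRNA, and here the groups did not overlap. The difference of -0.19 was not called (95% confidence interval -0.42 to 0.03, limma adjusted p = 0.142). The genes are neighbours on chromosome 11 and their exons overlap in part, by 4.64% of those of *FADS2*, so a small part of their values is uncertain.

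**Figure D2:**
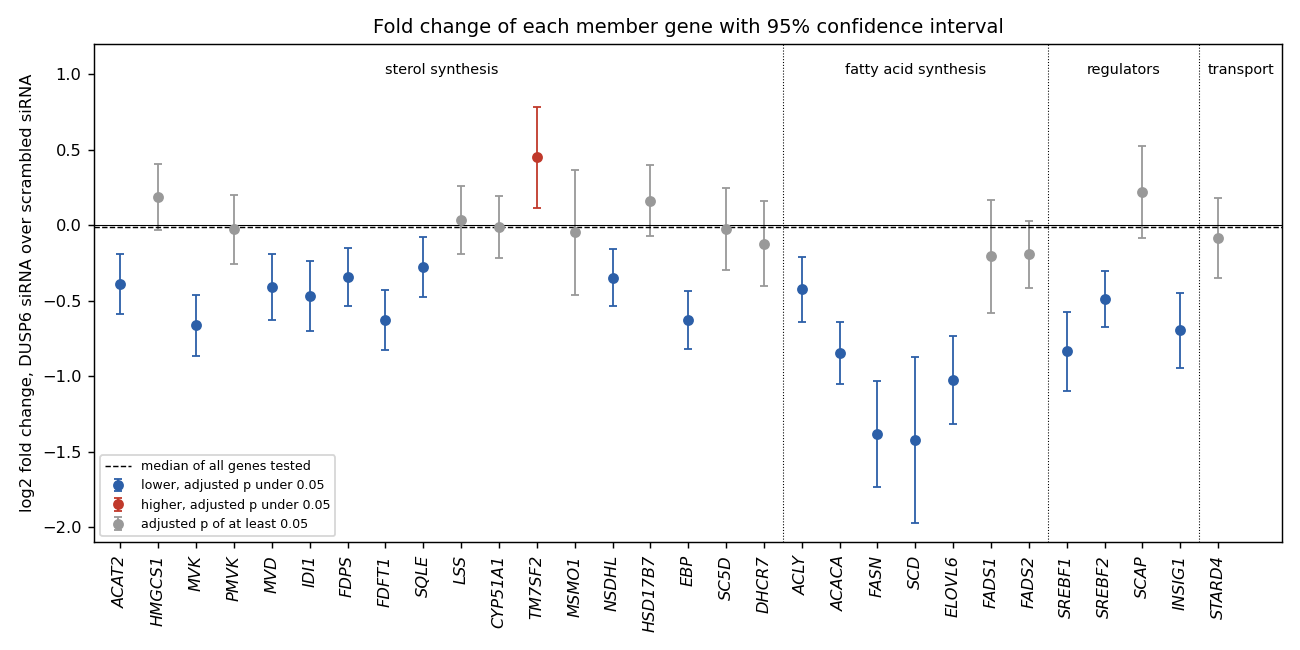
Points are the log2 fold changes of the 30 members, *DUSP6* siRNA over scrambled siRNA, on the vertical axis, and bars are 95% confidence intervals from limma over 3 libraries against 3. Blue marks genes that were lower, red the 1 gene that was higher and grey the 12 that were not called. The dashed line is the median of all genes tested, at -0.01.

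Sterol synthesis opens with the steps from acetyl-CoA to farnesyl diphosphate, and 5 of the 7 enzymes listed for them were lower, against 24.7% of all genes tested, with a median log2 fold change of -0.39. Under total-count scaling 1 of the 7, *MVK*, was lower and 1, *HMGCS1*, higher, and without *DUSP6* siRNA replicate 3 the number lower was 3. *ACAT2*, which joins acetyl-CoA units to acetoacetyl-CoA, was 41.9, 41.9 and 44.8 with scrambled siRNA and 32.4, 33.3 and 31.9 with *DUSP6* siRNA (log2 fold change -0.39, SE 0.09, limma adjusted p = 0.00696). Exons of other genes cover 22.2% of its exons, mostly those of *TCP1*, so its value is uncertain. *HMGCS1*, the next enzyme, makes HMG-CoA and was not lower. It was 276, 314 and 266 with scrambled siRNA and 306, 342 and 327 with *DUSP6* siRNA, and the groups overlapped by scrambled siRNA replicate 2. The log2 fold change was 0.19 (95% confidence interval -0.03 to 0.41, limma adjusted p = 0.139), and it passed the test as higher without scrambled siRNA replicate 2 (0.26, limma adjusted p = 0.0467), under quantile normalization (0.43) and under total-count scaling (0.42).

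The kinases and the decarboxylase that turn mevalonate into isopentenyl diphosphate differed among themselves. *MVK*, the mevalonate kinase, was 58.8, 54.1 and 56.1 with scrambled siRNA and 36.3, 36.2 and 33.3 with *DUSP6* siRNA. With a log2 fold change of -0.66 (SE 0.09, limma adjusted p = 5.20e-04) it had the lowest fold change of the 18 sterol enzymes. *PMVK*, the phosphomevalonate kinase, was 54.0, 51.8 and 63.2 against 55.8, 57.3 and 52.2, which overlapped, with a log2 fold change of -0.03 (95% confidence interval -0.26 to 0.20). *MVD*, which acts next, was 33.6, 34.7 and 31.5 with scrambled siRNA and 26.7, 24.2 and 23.6 with *DUSP6* siRNA (log2 fold change -0.41, SE 0.10, limma adjusted p = 0.00890).

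*IDI1*, the isomerase of isopentenyl diphosphate, was 67.2, 55.7 and 69.3 with scrambled siRNA and 46.1, 46.3 and 45.1 with *DUSP6* siRNA (log2 fold change -0.47, SE 0.10, limma adjusted p = 0.00627). *FDPS*, which makes farnesyl diphosphate, was 151, 162 and 171 against 130, 126 and 125 (log2 fold change -0.34, SE 0.08, limma adjusted p = 0.0107). The call of *FDPS* was lost under quantile normalization (-0.19, limma adjusted p = 0.0925), total-count scaling (-0.11, limma adjusted p = 0.367) and without *DUSP6* siRNA replicate 3 (limma adjusted p = 0.0599). For both genes every *DUSP6* siRNA library lay below every scrambled one. Their values are uncertain, since *IDI2-AS1* covers 15.0% of the exons of *IDI1* and *RUSC1-AS1* 18.6% of those of *FDPS*, and both have pseudogenes that could share reads.

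From squalene onwards, 4 of 11 enzymes were lower and 1 was higher, against 24.7% and 19.7% of all genes tested, with a median log2 fold change of -0.05 that became 0.06 under quantile normalization and 0.18 under total-count scaling. Under total-count scaling 2 were lower, *FDFT1* and *EBP*, and 2 higher, *TM7SF2* and *HSD17B7*, and without *DUSP6* siRNA replicate 3 the counts were 2 and 0. *FDFT1*, the squalene synthase that commits farnesyl diphosphate to sterols, was 230, 199 and 216 with scrambled siRNA and 138, 140 and 137 with *DUSP6* siRNA. It fell by 35.6% in the mean (log2 fold change -0.63, SE 0.09, limma adjusted p = 5.87e-04). *SQLE*, the squalene epoxidase, was 347, 358 and 314 against 278, 288 and 273, a smaller shift whose groups still did not overlap. Its log2 fold change of -0.28 (SE 0.09, limma adjusted p = 0.0307) did not pass when any one library other than scrambled siRNA replicate 3 was left out, with limma adjusted p-values from 0.0621 to 0.129, and it was -0.00 under quantile normalization.

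*LSS*, which closes the sterol rings to lanosterol, and *CYP51A1*, the lanosterol demethylase, were not called. *LSS* was 98.5, 114 and 122 with scrambled siRNA and 116, 116 and 110 with *DUSP6* siRNA (log2 fold change 0.03, 95% confidence interval -0.19 to 0.26). *CYP51A1* was 128, 109 and 113 against 113, 117 and 117, a log2 fold change of -0.01 (95% confidence interval -0.21 to 0.20). Its exons overlap those of other genes by 5.90%, and it has pseudogenes that could share reads.

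*TM7SF2*, a sterol C14 reductase, was the 1 member that was called higher. It was 29.7, 25.8 and 38.9 with scrambled siRNA and 44.1, 45.5 and 38.8 with *DUSP6* siRNA, so that the highest scrambled library exceeded the lowest *DUSP6* siRNA library by a small margin. The log2 fold change was 0.45 (SE 0.15, limma adjusted p = 0.0347), and the call was lost without any one library other than scrambled siRNA replicate 3, with limma adjusted p-values from 0.0519 to 0.126.

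The demethylation steps at C4 of the sterol ring were also split. *MSMO1*, the C4 methyl sterol oxidase, was 107, 65.3 and 112 with scrambled siRNA and 85.2, 92.0 and 90.7 with *DUSP6* siRNA. Scrambled siRNA replicate 2 lay far below the other libraries of its group, the log2 fold change was -0.05 (SE 0.18), and without that library *MSMO1* was called lower at -0.29 (limma adjusted p = 0.0263). *NSDHL*, the C4 decarboxylase, was 71.6, 75.1 and 73.0 against 57.7, 59.1 and 55.4 (log2 fold change -0.35, SE 0.08, limma adjusted p = 0.00878). *HSD17B7*, the ketoreductase that completes these steps, was 14.5, 12.9 and 15.3 with scrambled siRNA and 15.7, 16.3 and 16.0 with *DUSP6* siRNA. It was the member whose *DUSP6* siRNA libraries all lay above the scrambled ones, yet its log2 fold change of 0.16 was not called (95% confidence interval -0.07 to 0.40, limma adjusted p = 0.231), although it was called higher under total-count scaling (0.38, limma adjusted p = 0.0218), and it has pseudogenes that could share reads.

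The last steps move the double bonds of the sterol ring. *EBP*, the isomerase, was 84.0, 80.6 and 79.5 with scrambled siRNA and 54.9, 51.5 and 50.6 with *DUSP6* siRNA (log2 fold change -0.63, SE 0.08, limma adjusted p = 5.00e-04). *SC5D*, the desaturase that acts after it, was 71.6, 63.3 and 52.9 against 57.9, 65.4 and 59.8 (log2 fold change -0.03, 95% confidence interval -0.30 to 0.24). *DHCR7*, which reduces 7-dehydrocholesterol to cholesterol, was 228, 178 and 232 against 193, 214 and 176 (log2 fold change -0.12, 95% confidence interval -0.40 to 0.16). Both overlapped between the groups, so that *EBP* was the 1 of these enzymes that fell. *STARD4*, a carrier of cholesterol between membranes, was 8.55, 6.73 and 8.32 with scrambled siRNA and 7.40, 7.30 and 7.28 with *DUSP6* siRNA, with a log2 fold change of -0.08 (95% confidence interval -0.35 to 0.18).

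Summed over the branch, the fatty acid enzymes gave 3683, 2373 and 3144 in the scrambled siRNA libraries and 1456, 1304 and 1195 in the *DUSP6* siRNA libraries. The sum was 0.430 times as large in the mean with *DUSP6* siRNA, and most of it came from *FASN* and *SCD*. The sterol enzymes summed to 2093, 1994 and 2070 with scrambled siRNA and to 1787, 1870 and 1763 with *DUSP6* siRNA, a ratio of 0.880. Within a library the fatty acid sum was 1.76, 1.19 and 1.52 times the sterol sum with scrambled siRNA and 0.814, 0.697 and 0.678 times with *DUSP6* siRNA. These sums are not divided by gene length. Summed per kilobase of exon, the fatty acid enzymes gave 541, 332 and 462 and the sterol enzymes 525, 497 and 529 with scrambled siRNA, so that the sterol sum was the larger in 2 of 3 libraries. With *DUSP6* siRNA the sums per kilobase were 209, 192 and 173 for the fatty acid and 444, 459 and 434 for the sterol enzymes, the sterol sum being larger in each library. The regulators summed to 967 ± 22.8 (SD, n = 3) with scrambled and 679 ± 28.7 (SD, n = 3) with *DUSP6* siRNA.

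**Figure D3:**
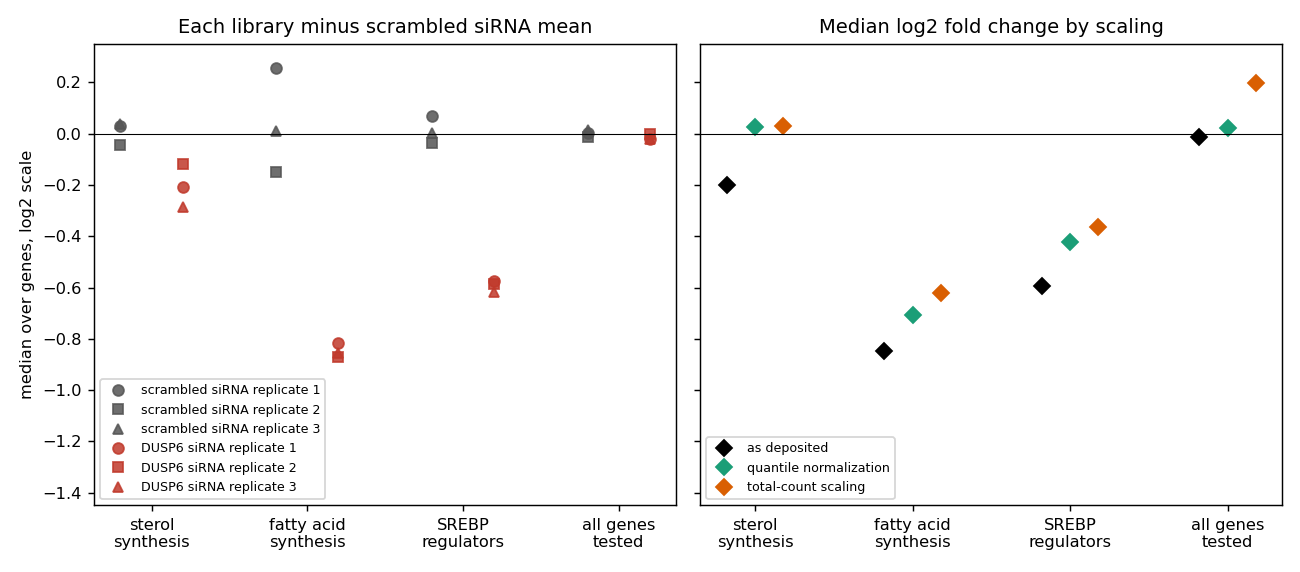
On the left, each point is the median over the genes of a branch of log2(value + 1) in 1 library less the scrambled siRNA mean, with the branches and all genes tested along the horizontal axis. On the right, points are the median log2 fold change of each branch with the values as deposited, after quantile normalization and after scaling to total counts. The fatty acid median lies lowest under each scaling, from -0.85 to -0.62, and the sterol median moves from -0.20 to 0.03.

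The number of sterol enzymes that were called depended on how the libraries were scaled. Scaling to total counts alone, an alternative chosen after seeing the data, moved the median of all genes from -0.01 to 0.20, and quantile normalization moved it to 0.02. Relative to the median of all genes, the fatty acid median was -0.83 as deposited, -0.73 under quantile normalization and -0.82 under total-count scaling. For the regulators it was -0.58, -0.44 and -0.56, and for the sterol enzymes -0.19, 0.00 and -0.17. The number of sterol enzymes that were lower was 9, 7 and 3 and the number higher 1, 2 and 3 under these scalings. Among all genes called, 55.6% were lower as deposited, 49.4% under quantile normalization and 27.4% under total-count scaling. *MVK*, *FDFT1* and *EBP* among the sterol enzymes, *FASN*, *SCD*, *ACACA* and *ELOVL6* among the fatty acid enzymes and *SREBF1*, *SREBF2* and *INSIG1* were lower under every alternative run, at a limma or edgeR adjusted p of at most 0.0366.

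The members were also less variable among the *DUSP6* siRNA libraries. The coefficient of variation was smaller with *DUSP6* siRNA for 25 of 30 members, as it was for 78.8% of all genes tested. Its median over the fatty acid enzymes was 17.1% with scrambled and 2.76% with *DUSP6* siRNA, and over the sterol enzymes 8.69% and 3.67%. Over all genes tested the medians were 12.7% and 6.04%. The difference between the branches and all genes was not tested.

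Divided by the exon length of each gene, the levels ordered the members differently from the raw values. *SCD* was highest with scrambled siRNA, at 214 per kilobase, followed by *FASN* at 141, *SQLE* at 78.9 and *SREBF2* at 65.7. With *DUSP6* siRNA *SCD* was still highest, at 76.5 per kilobase, and *SQLE* at 65.0 came before *FASN* at 54.2. *FADS2* at 2.34 and *STARD4* at 1.38 were the lowest with scrambled siRNA. Lengths were those of all annotated exons of a gene, which can exceed the transcripts that the cells use.

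Genes next to the pathway were read from 4 lists of 59 genes in all. Of 9 partners of SREBP processing, 2 were higher and 0 lower, also 0 lower at an unadjusted p under 0.05 and 0 with edgeR. The share higher was 22.2%, close to the 19.7% of all genes tested, and the number higher was 3 under quantile normalization, 6 under total-count scaling, 0 without *DUSP6* siRNA replicate 2 and 1 without any one of the other libraries except scrambled siRNA replicate 3. *ERLIN2* (0.44, limma adjusted p = 0.0111) and *RNF139* (0.31, limma adjusted p = 0.0289), which act in the sterol-dependent degradation of proteins of the endoplasmic reticulum, rose. *INSIG2*, the partner of *INSIG1*, was 74.3 ± 2.67 (SD, n = 3) with scrambled and 65.9 ± 1.86 (SD, n = 3) with *DUSP6* siRNA and was not called (limma adjusted p = 0.125).

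Of 12 genes of the isoprenoid branch, which draws on farnesyl diphosphate for dolichol, ubiquinone and protein prenylation, 2 were lower and 0 higher, with 1 higher at an unadjusted p under 0.05 and 0 with edgeR. The share lower was 16.7%, below the 24.7% of all genes tested. *ICMT*, which methylates prenylated proteins, fell by 0.37 on the log2 scale (limma adjusted p = 0.0106), and *DHDDS*, of dolichol synthesis, by 0.29 (limma adjusted p = 0.0374). Neither passed the test under quantile normalization or total-count scaling, where 1 and 3 other genes of the list were higher, and the number lower was 0 without *DUSP6* siRNA replicate 3 and 1 without *DUSP6* siRNA replicate 1 or 2 or scrambled siRNA replicate 2.

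Among 22 tested of 25 other genes of fatty acid and glycerolipid synthesis, 10 were lower and 2 higher, against 24.7% and 19.7% of all genes tested, with a median of -0.22 that became -0.15 under quantile normalization and -0.00 under total-count scaling, the latter with 6 lower and 5 higher. The number lower was also 6 without *DUSP6* siRNA replicate 1 or 3, and the number higher was 1 without replicate 2. *ACSL1*, which activates long-chain fatty acids as acyl-CoA, fell to 149 ± 16.1 (SD, n = 3) from 353 ± 62.9 (SD, n = 3), with log2 fold change -1.23 (limma adjusted p = 1.96e-04). *MID1IP1*, whose protein promotes polymerisation of acetyl-CoA carboxylase, fell by 0.95 and *ACSL3* by 0.75 on the log2 scale. *ELOVL7*, an elongase of long-chain fatty acids, rose to 17.5 ± 0.76 (SD, n = 3) from 9.07 ± 1.22 (SD, n = 3), with log2 fold change 0.89 (limma adjusted p = 4.89e-04), and *DGAT1*, of triglyceride synthesis, rose by 0.44.

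Sterol efflux, storage and transfer genes went both ways, with 3 lower and 4 higher of 9 tested of 13 found in the table. These were 33.3% and 44.4% of those tested, against 24.7% lower and 19.7% higher of all genes tested. The number higher was 2 without replicate 1 of either group and 1 without *DUSP6* siRNA replicate 2 or 3. The number lower was 2 under total-count scaling and without replicate 1 of either group or *DUSP6* siRNA replicate 3. *ABCG1*, a sterol exporter and known LXR target, fell to 17.5 ± 0.91 (SD, n = 3) from 43.9 ± 4.47 (SD, n = 3), with log2 fold change -1.28 (limma adjusted p = 4.37e-05). *NR1H3*, which encodes LXR alpha, fell by 0.69 and *NCEH1*, a cholesteryl ester hydrolase, by 0.41 on the log2 scale. *SOAT1*, which esterifies cholesterol for storage, rose by 0.46, *NR1H2*, which encodes LXR beta, by 0.41 and *STARD3*, a sterol transfer protein, by 0.30. Exons of *NAPSA* cover 22.1% of those of *NR1H2*, so its value is uncertain.

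**Figure D4:**
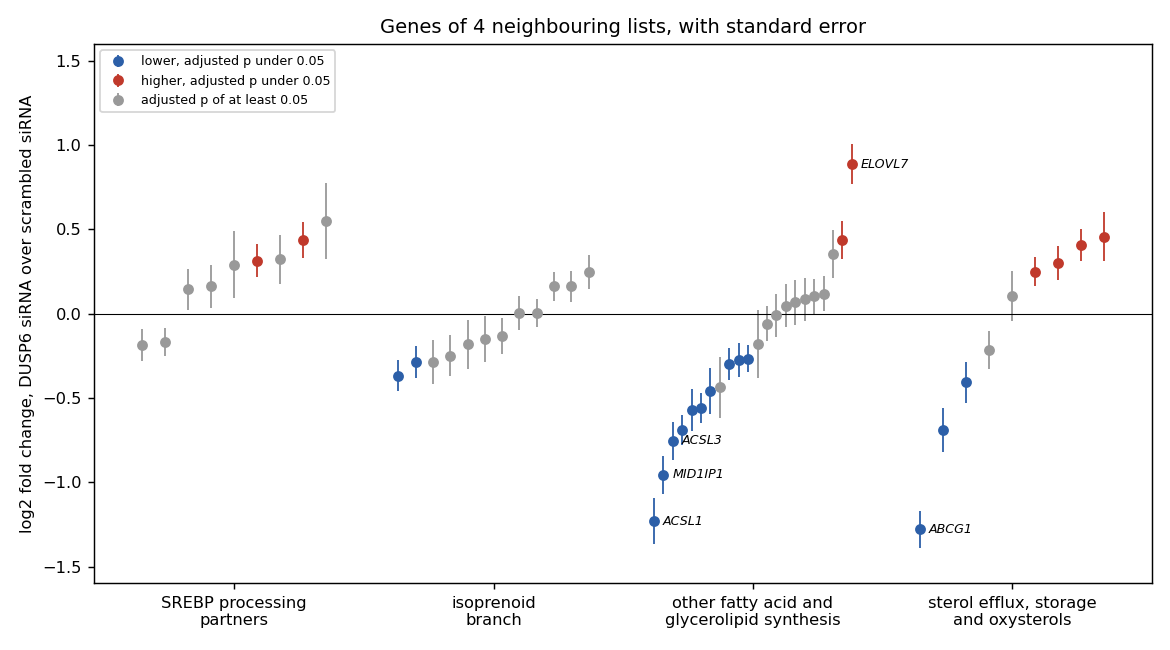
Points are the log2 fold changes of the tested genes in the 4 lists around the pathway, *DUSP6* siRNA over scrambled siRNA, on the vertical axis, with bars of 1 standard error from limma. Blue marks lower, red higher and grey genes that were not called, and names stand beside the largest changes. *ABCG1* at -1.28 and *ACSL1* at -1.23 are the lowest points and *ELOVL7* at 0.89 the highest.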

How the data were processed

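The 6 RNA sequencing libraries came from MDA-MB-453 cells, 3 with scrambled and 3 with *DUSP6* siRNA. The libraries were made with a stranded mRNA kit. The authors aligned reads to hg38 and counted them on RefSeq genes with Rsubread at default settings, which do not use strand. Reads from exons that overlap on opposite strands therefore cannot be assigned to either gene. The authors deposited 1 normalized signal per gene and library. All values were whole multiples of 1 read (tolerance 0.01), and the scaling factors differed by at most 4e-06 from edgeR's TMM factors on the recovered reads. Averaged over genes, libraries of a group differed by more than counting error. This did not hold for every member. *STARD4*, with 366, 597 and 471 reads in the *DUSP6* siRNA libraries, had a coefficient of variation of 0.894% there, less than counting error alone would give.

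limma 3.58.1 in R 4.3.3 (eBayes with a trend) was run on log2(value + 1) for genes whose mean value reached 1, and p-values were adjusted after Benjamini and Hochberg. Fold changes are on this scale, which understates low genes. The named genes were all 30 members, *DUSP6* and, of each other list, up to 3 called genes per direction with the largest fold change. *INSIG2* was added for its relation to *INSIG1*. Members and lists were chosen with earlier results of these data known. As alternatives, the pseudocount was set to 0.1, the filter was dropped or raised to a mean of 10, the scaling was changed to median of ratios, quantile or total count, a replicate block was added, the eBayes trend was dropped, edgeR 4.0.16 replaced limma, and each library was left out. limma and edgeR were tested on simulated data. Positions came from RefSeq on GRCh38, which held 22359 of 22807 gene IDs, and exon lengths and overlaps from GENCODE. Promoters came from RefSeq. Of the lists, 1 SREBP processing partner and 1 luminal marker are not reported here, and the counts leave them out.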

Additional observations from a re-analysis of the deposited data

How the results depend on the processing

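The fatty acid enzymes gave 5 lower in each of the 6 fits that left out 1 library, and 4 under quantile normalization and total-count scaling. The number higher was 0 throughout. Without 1 library, 3 regulators were lower in each fit and 0 to 1 higher, the sterol enzymes gave 5 to 9 lower and 0 to 1 higher, and all genes tested gave 2306 to 3581 lower and 1574 to 3183 higher. The lowest sterol count, 5, came without *DUSP6* siRNA replicate 3, where *MVD*, *FDPS*, *NSDHL* and *SQLE* lost their calls, and the lowest count of higher genes, 1574 against 2540, without *DUSP6* siRNA replicate 2. The regulator called higher was *SCAP*, without scrambled siRNA replicate 3.

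Total-count scaling, chosen after seeing the data, gave 3 sterol enzymes lower and 3 higher, 1 regulator, *SCAP*, higher, and 1800 genes lower and 4777 higher among all tested. These shifts go with the move of the median of all genes to 0.20. Quantile normalization gave 2 sterol enzymes higher, and no filter, with 22807 genes tested, gave 0. A mean value of at least 10, with 9562 genes tested, left 1639 genes higher. For these and the other results, the cause was not tested.

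Signs turned only among members that were not called. Under quantile normalization the log2 fold change was 0.058 for *PMVK*, 0.061 for *SC5D*, 0.063 for *DHCR7*, 0.12 for *CYP51A1* and 0.067 for *MSMO1*. Under total-count scaling it was 0.20 for *PMVK* and *SC5D*, 0.22 for *CYP51A1*, 0.18 for *MSMO1*, 0.11 for *DHCR7*, 0.018 for *FADS1*, 0.028 for *FADS2* and 0.12 for *STARD4*. Over the 6 fits without 1 library it ran from -0.085 to 0.056 for *PMVK*, from -0.051 to 0.10 for *LSS*, from -0.059 to 0.058 for *CYP51A1*, from -0.29 to 0.092 for *MSMO1* (called lower without scrambled siRNA replicate 2) and from -0.14 to 0.074 for *SC5D*.

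The replicate numbers showed no pairing of the libraries. Same-numbered libraries had correlations of 0.005, 0.087 and -0.076 in their deviations, and differently numbered ones from -0.091 to 0.132. With 3 libraries per group, these values cannot establish that no pairing existed. With a replicate block 8 sterol enzymes were lower, *SQLE* being lost (limma adjusted p = 0.0531), 1 was higher, 5 fatty acid enzymes and 3 regulators were lower, and 3096 genes were lower and 2495 higher among all tested. With 3 libraries per group, changes the size of those of *HMGCS1* or *FADS2* were not resolved.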
